A study of Mus musculus with 3 samples.

Results

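The 46 long genes described here encode neurexins and neuroligins, contactins and their associated proteins, immunoglobulin cell adhesion molecules, alpha-catenins and MAGI scaffolds, glutamate and GABA-A receptor subunits, auxiliary subunits of Kv4 potassium channels, and a few very large receptors. They were taken from a fixed list of symbols, and all 46 were found among the 22367 records of protein-coding genes of chromosomes 1 to 19, X and Y in the mouse annotation. The label "long" held for 43 of them, which spanned 100 kb or more, and 12 spanned 1 Mb or more. Their median length was 648.6 kb, against 15.38 kb for the other 22319 records. Magi2 had 3 records in the annotation, of which the longest was used and the rest were not counted among the others. The exceptions were Nlgn2 (14.66 kb), Cntn2 (33.52 kb) and Gabra4 (88.58 kb).

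The libraries came from NE4C, an established mouse neural stem cell line cultured in Eagle MEM on poly-L-lysine, and the sample labels name no treatment. Chromatin was immunoprecipitated with an antibody to histone H3 homocysteinylated at lysine 79 (H3K79Hcy), an antibody to homocysteinylated lysine at any position (KHcy), or an antibody to trimethylated lysine 4 of histone H3 (H3K4me3). There was 1 library for each antibody, so no difference between antibodies or genes could be set against replicate error, and no test was made. The intervals below are 95% intervals and cover counting error only.

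Lysine homocysteinylation arises when homocysteine thiolactone, a reactive product of homocysteine, binds to the side chain of lysine. H3K4me3 is known as a mark of the starts of active genes. Synaptic adhesion molecules join the membranes on both sides of the synapse, and their genes are among the longest of the mouse genome because of very large introns. They are used mainly by neurons, whereas NE4C cells are dividing precursors.

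The H3K79Hcy list held 7387 peaks with 209335 reads, the KHcy list 7300 peaks with 276864 reads, and the H3K4me3 list 19339 peaks with 787308 reads. The total number of reads in each library was not given in the sources used here, so only the reads inside peaks are known. Of the markers used to check the cells, 1 of 9 neural stem cell genes, 0 of 7 neuron genes, 0 of 8 glia genes and 0 of 6 blood genes had the gene start inside an H3K4me3 peak. Over all protein-coding genes the share was 5.41%, so lists this short would hold few such starts whatever the cells. The check could therefore not distinguish the cell type.

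In the 46 genes, a total of 141 H3K79Hcy, 112 KHcy and 99 H3K4me3 peaks were detected, which made up 1.91%, 1.53% and 0.512% of the respective list. Almost all of them lay in introns: 339 of the 352 peaks were centred in an intron of the widest transcript, 10 in an exon and 3 outside that transcript. In the H3K79Hcy list, 12 of 141 peaks (8.51%, 4.94 to 14.3) touched an exon of their gene, against 14.7% of the peaks in the other genes of 100 kb or more. For KHcy the same share was 9 of 112 (8.04%, 4.29 to 14.6), against 25.3%. For H3K4me3 it was 20 of 99 (20.2%, 13.5 to 29.2), against 21.1%. The other genes were not matched to the 46 in length, and the share of exon sequence in either set was not measured.

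A few stretches of sequence show what these peaks contain. All are from mm9, are given 5′ to 3′ on the strand of the gene, and were taken from the centre of the region that the peaks have in common. Capitals mark bases that lie in a 31-base word found more than once in the genome. The first was a peak of all 3 lists in intron 4 of the 30-exon transcript of Chl1 (chr6:103599051-103599350), the second a peak of all 3 lists in intron 2 of Cntnap4 (chr8:115165301-115165500), and the last a peak of both homocysteine lists in intron 4 of Gabrb1 (chr5:72401201-72401400).
Chl1: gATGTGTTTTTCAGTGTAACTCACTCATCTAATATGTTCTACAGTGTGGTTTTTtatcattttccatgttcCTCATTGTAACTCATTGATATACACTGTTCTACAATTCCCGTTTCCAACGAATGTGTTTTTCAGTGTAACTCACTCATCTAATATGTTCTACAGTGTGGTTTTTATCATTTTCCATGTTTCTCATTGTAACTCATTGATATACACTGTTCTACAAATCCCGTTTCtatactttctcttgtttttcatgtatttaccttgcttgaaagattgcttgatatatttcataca
Cntnap4: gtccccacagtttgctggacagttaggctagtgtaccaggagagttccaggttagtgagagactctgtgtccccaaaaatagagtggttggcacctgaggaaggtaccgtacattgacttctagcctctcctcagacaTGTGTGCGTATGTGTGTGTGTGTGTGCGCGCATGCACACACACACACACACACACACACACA
Gabrb1: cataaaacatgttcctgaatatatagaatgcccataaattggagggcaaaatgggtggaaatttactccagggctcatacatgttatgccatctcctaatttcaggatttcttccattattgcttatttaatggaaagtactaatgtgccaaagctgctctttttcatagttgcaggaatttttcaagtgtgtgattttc
The stretch of Gabrb1 held no repeated word and no CpG. In Cntnap4, 62 of 200 bases were in repeated words, most of which were runs of TG and CA. In Chl1, 218 of 300 bases were in repeated words.

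The peak of Chl1, which encodes a close homologue of the adhesion molecule L1, stood apart from every other peak in the 46 genes. It held 141 reads in the H3K79Hcy list, 143 in the KHcy list and 143 in the H3K4me3 list, which was 29.5-fold, 32.1-fold and 51.8-fold over the background of each library. The read counts were nearly equal although the lists differed in their total reads. The H3K79Hcy peak also reached into an exon. No other peak in the 46 genes was above 5-fold in any list. Within the printed stretch, a word of 53 bases recurred 121 bases further on. The stretch also contained a match to the CENP-B box (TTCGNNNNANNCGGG, searched on both strands), a motif known from the satellite DNA of mouse centromeres. The motif was present in 1 of 141, 1 of 112 and 1 of 99 peaks of the 3 lists in these genes, each time this peak, and in 0.0256% of 23470 windows of 1400 bp that tile the same genes.

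Repeated words of the Chl1 peak were searched over chromosomes 1 to 19, X and Y, and 5 places were found that held any of 16 such words. All 5 places, Chl1 included, lay in peaks of all 3 lists. The place with the most words was on chromosome 2 at Gm10801, where the highest peaks held 896, 900 and 908 reads in the H3K79Hcy, KHcy and H3K4me3 lists. A place on chromosome X had 93, 89 and 100 reads, a place on chromosome 9 had 64, 83 and 71 reads, and a place on chromosome 4 had 24, 28 and 21 reads. At each copy, the lowest and the highest count of the 3 antibodies lay close together compared with the range between copies. The part of this repeat in the Chl1 peak was not tested.

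**Figure D1:**
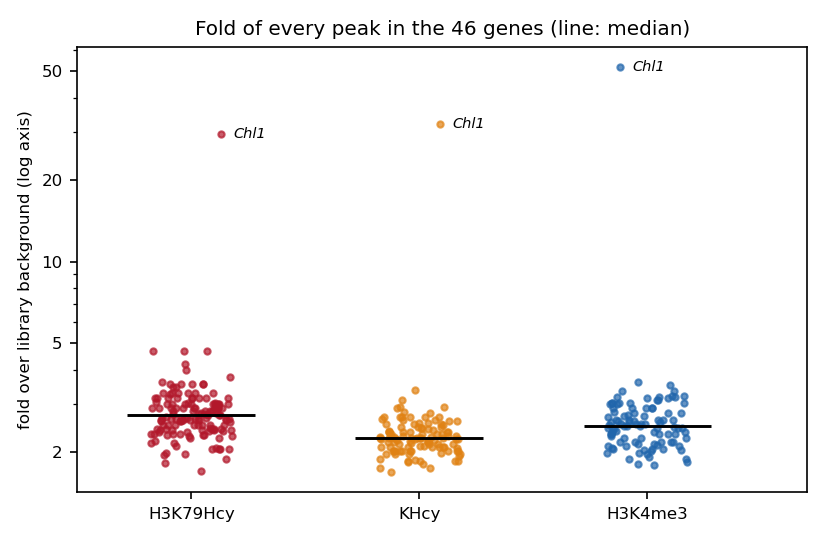
Each point is a peak in the 46 genes, and the vertical axis gives the reads of the peak over the background of its library on a log axis, for the 141 H3K79Hcy, 112 KHcy and 99 H3K4me3 peaks. The lines are the medians (2.72, 2.24 and 2.49), and the Chl1 peak at 29.5, 32.1 and 51.8 is the only point above 5 in each list.

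Apart from Chl1, the peaks were low. The median fold of the peaks in the 46 genes was 2.72 for H3K79Hcy (2.62 to 2.83), against 2.67 for the peaks in other genes. The KHcy median was 2.24 (2.19 to 2.28), against 2.24, and the H3K4me3 median was 2.49 (2.38 to 2.59), against 2.59. Peaks in these genes were thus close in height to the peaks of other genes. After Chl1, the H3K79Hcy peaks of largest fold were a peak in intron 2 of Cntn3 (chr6:102384801-102385200) and a peak in intron 1 of Cntn4 (chr6:105647401-105647800), each of 15 reads and 4.71-fold. A peak in intron 19 of Erbb4 (chr1:68293401-68293800) had the same values. In the KHcy list they were a peak in Gabrb1 (chr5:72400801-72401800, 25 reads, 3.37-fold) and a peak in Grin2b (chr6:135850601-135851600, 23 reads, 3.1-fold). In the H3K4me3 list they were a peak in intron 2 of Cntn6 (chr6:104554801-104555600, 20 reads, 3.62-fold) and the peak over the start of Csmd3 (chr15:48622601-48624000, 34 reads, 3.52-fold).

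An H3K79Hcy peak was present in 28 of the 46 genes (60.9%, 46.5 to 73.6). The share was 7.8% over all protein-coding genes and 27.7% over the other 2358 genes of 100 kb or more. At the shares of genes of similar length, from 2/3 to 1.5 times the length of each gene, 16.5 of the 46 would have had a peak. A KHcy peak was present in 21 genes (45.7%, 32.2 to 59.8), against 9.25% of all genes, 29.4% of the genes of 100 kb or more, and 15.5 genes at the shares of similar length. An H3K4me3 peak was present in 22 genes (47.8%, 34.1 to 61.9), against 19.7%, 36.7% and 18.3 genes. The share was thus above that of the genes of 100 kb or more for both homocysteine lists, while the interval for H3K4me3 included it. Against genes of similar length, 16.5 of 46 lay below the interval for H3K79Hcy, and 15.5 of 46 lay within that for KHcy. These intervals are no test of the excess. The genes were chosen with earlier results of these data known, and neighbouring members share parts of a stretch. Under a stricter score limit, an H3K79Hcy peak was present in 16 genes (34.8%, 22.7 to 49.2), against 2.9% of all genes, 10.6% of the genes of 100 kb or more and 8 genes at the shares of similar length. For KHcy it was 14 genes (30.4%, 19.1 to 44.8), against 4.62%, 15.3% and 8.45 genes. For H3K4me3 it was 14 genes (30.4%, 19.1 to 44.8), against 12.9%, 25.2% and 13.1 genes.

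Pooled over the 46 genes, peaks were also denser than in genes of similar length for the homocysteine lists. The 5 genes with most peaks held 73 of 141 H3K79Hcy peaks (51.8%) and 57 of 112 KHcy peaks (50.9%). The median density per 100 kb was 0.182 for H3K79Hcy and 0 for KHcy, against 0 and 0 in the other genes of 100 kb or more. Among genes with a peak the medians were 0.578 and 0.699, below the 0.756 and 0.836 of those other genes. A gene with a peak cannot have a density below 1 peak over its length, a floor that is higher for shorter genes. Those other genes were not matched in length, so these medians cannot be compared apart from length. At the pooled density of genes of similar length, the 46 genes would have held 66.1 H3K79Hcy peaks, so the 141 counted were 2.13 times as many. For KHcy, 112 were counted against 56.4, a ratio of 1.99. For H3K4me3, 99 were counted against 194, a ratio of 0.51. This expected number depended on few genes. Cdh13 (1041 kb) held 224 H3K4me3 peaks and Sdk1 (974.1 kb) held 99, and both were named after their values were seen. The pooled density of genes of similar length was 0.761 per 100 kb for Cntn4, whose range of length includes both. It was 0.141 for Csmd1, whose range includes neither. Without matching for length the gap was smaller for the homocysteine lists. The pooled H3K79Hcy density was 0.429 per 100 kb in the 46 genes, 0.271 in the other genes of 100 kb or more and 0.307 in all other protein-coding genes. For KHcy the densities were 0.341, 0.3 and 0.362, so the 46 genes were below all other genes together. For H3K4me3 they were 0.301, 0.612 and 0.852. Counted by gene, 21 of the 46 (45.7%) were denser in H3K79Hcy than their genes of similar length, against 24.9% of the other genes of 100 kb or more. For KHcy there were 18 (39.1%), against 26.2%, and for H3K4me3 there were 9 (19.6%), against 25.7%. Only a gene with a peak can be denser, and 27.7%, 29.4% and 36.7% of those other genes had one in the 3 lists. At the shares of similar length, 16.5, 15.5 and 18.3 of the 46 would have had one. The shares by gene thus also depend on length, for which those other genes were not matched.

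The 5 Mb stretch around each gene gave another picture. At the density of the rest of their stretches, the 46 genes would have held 160 H3K79Hcy peaks, 147 KHcy peaks and 210 H3K4me3 peaks. The ratios of counted to expected peaks were 0.881, 0.76 and 0.471. For the other genes of 100 kb or more, the same ratios were 0.906, 0.981 and 0.773. In these pooled ratios, the higher density against genes of similar length did not extend to a comparison with the DNA around the same genes. The exception among the ratios was H3K79Hcy without the genes of chromosome 6, given with that chromosome. By gene, 12 of the 46 (26.1%) were denser in H3K79Hcy than the rest of their stretch, against 20.3% of the other genes of 100 kb or more. For KHcy there were 7 (15.2%), against 22.3%, and for H3K4me3 there were 11 (23.9%), against 18.4%. The shares by gene were thus above those of the other long genes for H3K79Hcy and H3K4me3, and below for KHcy. Here too only a gene with a peak can be denser, and the other long genes were not matched in length. Under the alternatives, the H3K79Hcy count ranged from 9 (stricter score) to 16 (fixed stretches). These differences were not tested. Leaving out the other members from the rest of each stretch gave ratios of 0.872, 0.751 and 0.468.

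**Figure D2:**
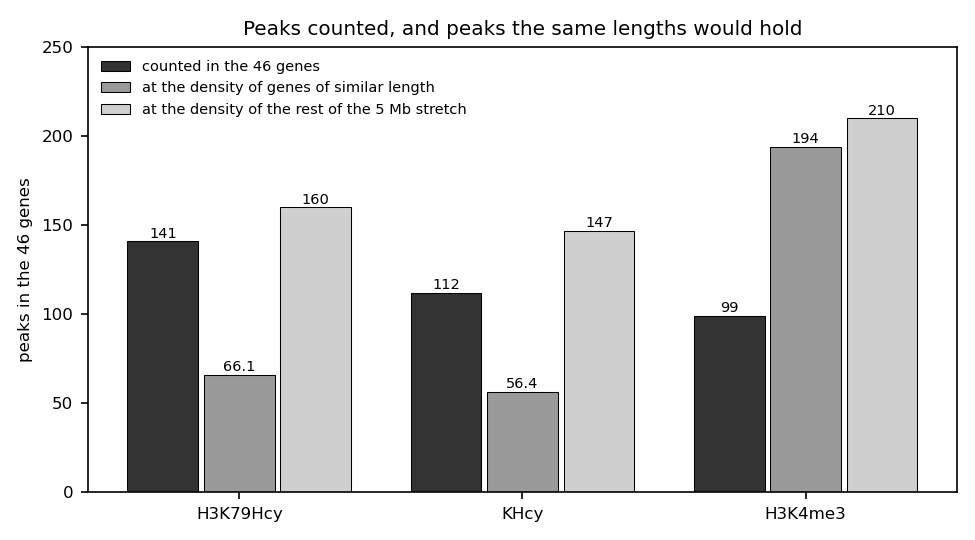
Bars give the number of peaks in the 46 genes for each list: as counted, at the density of genes of similar length, and at the density of the rest of the 5 Mb stretch around each gene. Counted peaks exceed the second bar for H3K79Hcy (141 against 66.1) and KHcy (112 against 56.4) and lie below the last bar in every list.

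Where the stretch was rich in peaks, the gene usually was too. For H3K79Hcy, the median density of the rest of the stretch was 0.465 peaks per 100 kb around the 28 genes with a peak and 0.0494 around the 18 without. For KHcy the medians were 0.532 and 0.0873, and for H3K4me3 0.873 and 0.218. Over the 46 genes, Spearman's rank correlation between the density of the gene and that of the rest of its stretch was 0.676 in the H3K79Hcy list, 0.688 in the KHcy list and 0.56 in the H3K4me3 list. These are descriptions, since neighbouring members share parts of a stretch and peaks of a list share a library.

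**Figure D3:**
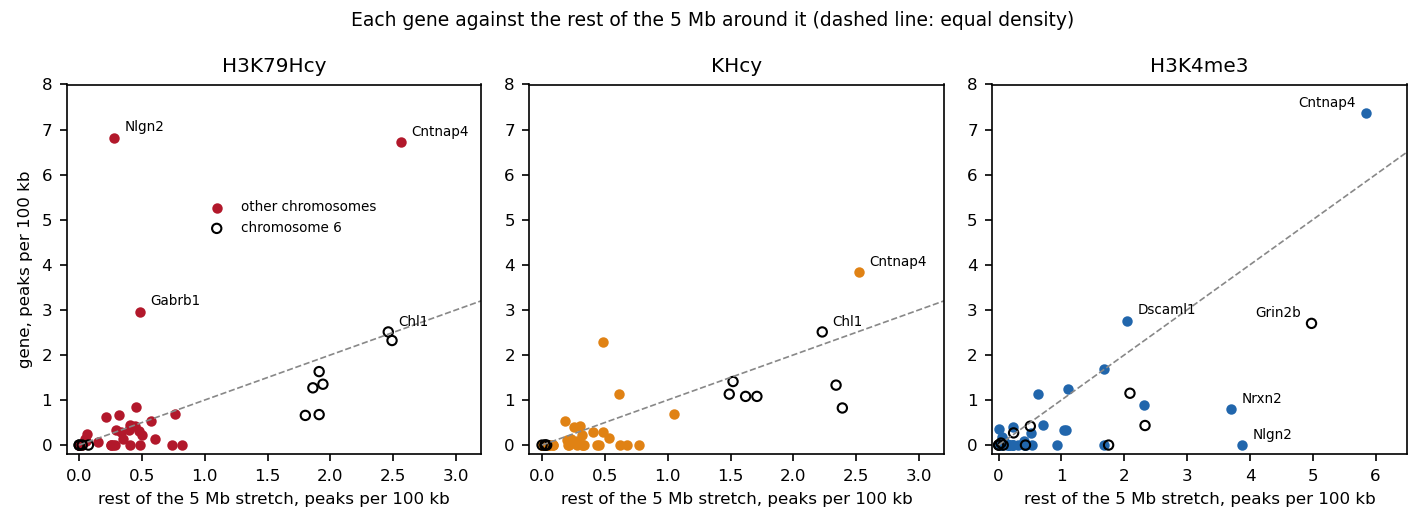
Each point is a gene of the 46, with its peaks per 100 kb on the vertical axis and those of the rest of its 5 Mb stretch on the horizontal axis, and open circles are the 11 genes of chromosome 6. Cntnap4 lies above the dashed line of equal density in each list (6.72 against 2.56 for H3K79Hcy), as does Gabrb1 for H3K79Hcy (2.96 against 0.484), while most chromosome 6 genes with peaks lie on or below it.

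The genes were spread over 14 chromosomes, of which chromosome 6 held 11. These 11 held 53 of 141 H3K79Hcy peaks (37.6%), 48 of 112 KHcy peaks (42.9%) and 26 of 99 H3K4me3 peaks (26.3%). Without them, a peak was present in 21, 14 and 16 of the other 35 genes. Their ratios to genes of similar length were 1.85 for H3K79Hcy, 1.54 for KHcy and 0.514 for H3K4me3, and their ratios to the rest of the stretches 1.08, 0.852 and 0.519. Leaving out chromosome 6 thus moved the H3K79Hcy ratio to the stretch from below 1 to above 1. This rested on 88 peaks against 81.5 expected, and Cntnap4 on chromosome 8 alone held 21 of the 88. The ratio without both chromosome 6 and Cntnap4 was not computed. At the other end, the 7 genes of chromosomes 12, 14 and 16 held 2 H3K79Hcy, 0 KHcy and 4 H3K4me3 peaks in 5.03 Mb. These chromosomes were poor in peaks as a whole, with 0.0196, 0.0304 and 0.0263 H3K79Hcy peaks per 100 kb, against 0.785 for chromosome 6.

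Of the 46 genes, 12 had a peak in all 3 lists, 11 in 2 lists, 13 in 1 list and 10 in none. The same split was not counted for other genes, so these numbers cannot be called particular to the 46. The genes without any peak were Nrxn3, Nlgn1, Lrrtm4, Cadm2, Cntn2, Dscam, Ncam2, Ctnna2, Grm8 and Gabra2. Nrxn3 (1612 kb) and Ctnna2 (1098 kb) were the longest of them. The surroundings of these genes differed. The rest of the stretch of Ncam2 on chromosome 16 was itself without a peak in any list. The rest of the stretch of Gabra2 held 40 H3K79Hcy, 33 KHcy and 20 H3K4me3 peaks, and that of Cntn2 held 14, 16 and 83.

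**Figure D4:**
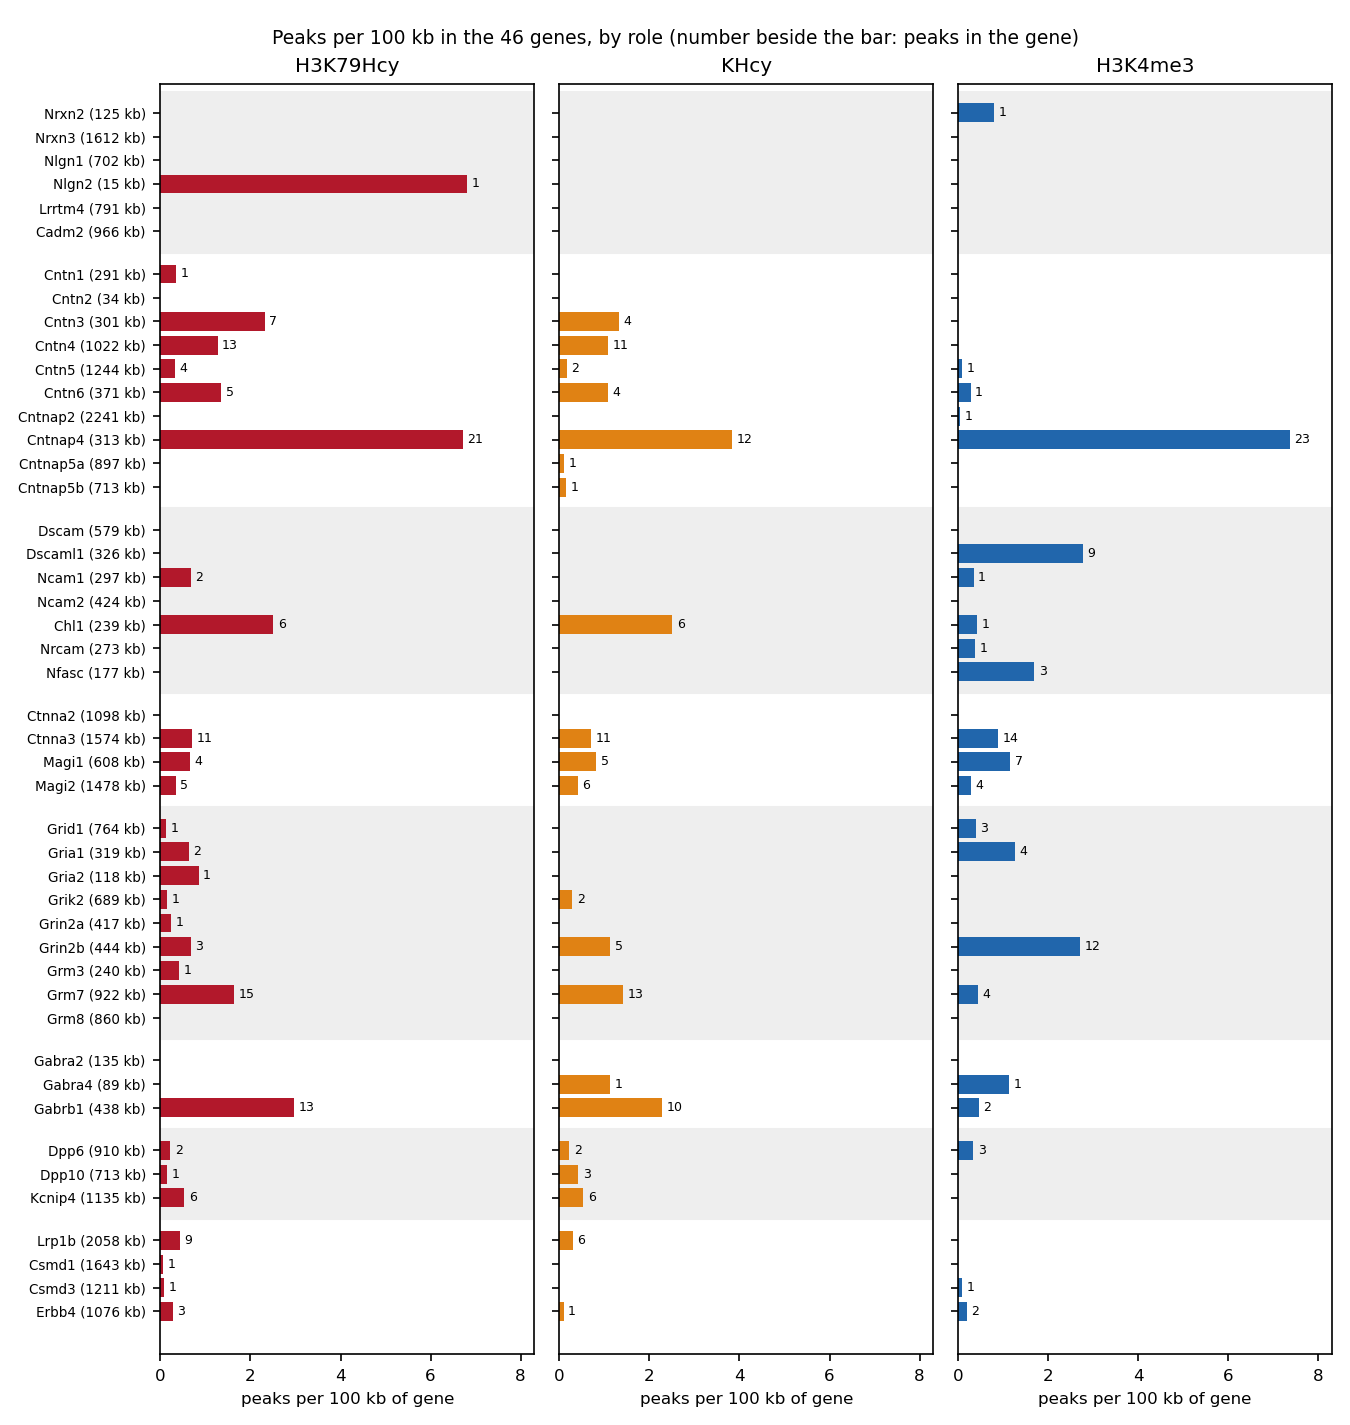
Bars give the peaks per 100 kb of each of the 46 genes in the 3 lists, with genes grouped by role in the shaded blocks, and the number beside a bar is the number of peaks in the gene. Cntnap4 has the tallest bar in KHcy (3.84) and H3K4me3 (7.36), and the bar of Nlgn2 in H3K79Hcy (6.82) rests on 1 peak in a gene of 14.66 kb.

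Neurexins, neuroligins and related organisers of the synapse were nearly empty. Neurexins are presynaptic receptors that bind the postsynaptic neuroligins. Of the 6 genes of this group, 1 had an H3K79Hcy peak, 0 a KHcy peak and 1 an H3K4me3 peak, in 4.21 Mb. At the shares of genes of similar length, 1.95, 1.83 and 2.15 of the 6 would have had a peak. The gap was thus small in number of genes and was not tested. Nrxn2 held 1 H3K4me3 peak (31 reads) in intron 2 and none of the other lists, although the rest of its stretch held 173 H3K4me3 peaks. The stretches of 4 other genes of the group were themselves almost empty. Their rest held 0 H3K79Hcy, 2 KHcy and 10 H3K4me3 peaks around Nrxn3, 0, 0 and 1 around Nlgn1, 1, 1 and 0 around Lrrtm4, and 1, 1 and 2 around Cadm2. Nlgn2, the neuroligin of inhibitory synapses, held 1 H3K79Hcy peak of 17 reads over the end of the gene (chr11:69636401-69637000), in the part of its last exon that does not code for protein. This gave the highest H3K79Hcy density of all 46 genes, 6.82 per 100 kb, from a single peak in a short gene.

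Contactins are adhesion molecules anchored to the outer face of the axon membrane, and the contactin-associated proteins (Caspr proteins) pair with them. The 10 genes of this group held 51 H3K79Hcy, 35 KHcy and 26 H3K4me3 peaks, the most peaks of any group in each list. It was also the largest group, with 7.43 Mb, and per 100 kb it was highest in no list. Its pooled densities were 0.687, 0.471 and 0.35. The highest were 1.96 H3K79Hcy and 1.66 KHcy in the GABA-A subunits and 0.648 H3K4me3 in the immunoglobulin adhesion molecules. Cntnap4 (chr8:115093943-115406617) held 21, 12 and 23 of the peaks of the group. Its densities were 6.72, 3.84 and 7.36 per 100 kb, against 2.56, 2.52 and 5.85 in the rest of its stretch. Of 653 genes of similar length, 0.153% were as dense in H3K79Hcy, 1.07% in KHcy and 0.766% in H3K4me3. Cntnap4 was the gene with the most peaks of the 46 in H3K79Hcy and H3K4me3. Without it, the ratios to genes of similar length were 1.84, 1.81 and 0.395, and the ratios to the rest of the stretches 0.79, 0.717 and 0.396.

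The contactin genes of chromosome 6 were rich in both homocysteine lists and poor in H3K4me3. Cntn4 held 13 H3K79Hcy, 11 KHcy and 0 H3K4me3 peaks. Cntn3 held 7, 4 and 0, and Cntn6 held 5, 4 and 1. The rest of their stretches was denser still in the homocysteine lists, with 1.86 H3K79Hcy peaks per 100 kb around Cntn4, against 1.27 in the gene. These stretches overlap each other, so their values are not independent. By contrast, Cntnap2, the longest of the 46 genes (2241 kb, also on chromosome 6), held 0, 0 and 1 peaks, and the rest of its stretch held 2, 1 and 1. Cntn5 on chromosome 9 held 4, 2 and 1 peaks, Cntn1 1, 0 and 0, Cntnap5a and Cntnap5b 0, 1 and 0 each, and Cntn2 none.

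Among the 7 immunoglobulin adhesion molecules, which bind to themselves and to each other on neurites, Chl1 held 6 H3K79Hcy, 6 KHcy and 1 H3K4me3 peaks. Its homocysteine densities of 2.51 and 2.51 per 100 kb were close to the 2.46 and 2.23 in the rest of its stretch on chromosome 6. Dscaml1, a paralogue of the Down syndrome cell adhesion molecule, held 0, 0 and 9 peaks, and its H3K4me3 density of 2.76 compared with 2.05 in the rest of the stretch. Nfasc, which encodes the nodal adhesion molecule neurofascin, held 0, 0 and 3, Ncam1 2, 0 and 1, and Nrcam 0, 0 and 1. Dscam and Ncam2 held none. This group had H3K4me3 peaks in 5 of 7 genes, against 2.89 at the shares of genes of similar length. It had H3K79Hcy peaks in 2 of 7, close to the 2.29 at those shares.

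Alpha-catenins link cadherins to the actin cytoskeleton, and MAGI proteins are scaffolds beneath cell junctions. Ctnna3, which encodes an alpha-catenin best known from heart and testis, held 11, 11 and 14 peaks over 1574 kb. Its densities of 0.699, 0.699 and 0.89 were below those of the rest of its stretch, 0.759, 1.05 and 2.31. Ctnna2, the alpha-catenin of neurons, held none over 1098 kb, and the rest of its stretch held 0, 1 and 0 peaks. Magi1 held 4, 5 and 7 peaks and Magi2 5, 6 and 4.

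Glutamate receptors carry most fast excitatory transmission in the brain. Of the 9 genes, 8 had an H3K79Hcy peak, 3 a KHcy peak and 4 an H3K4me3 peak, against 3.29, 3.13 and 3.78 at the shares of genes of similar length. Under the stricter score the counts were 3 (Gria2, Grin2b and Grm7), 2 and 3. Grm7, a presynaptic metabotropic receptor on chromosome 6, held 15, 13 and 4 peaks, or 1.63, 1.41 and 0.434 per 100 kb, against 1.91, 1.52 and 2.33 in the rest of its stretch. Its close relative Grm8, also on chromosome 6, held none over 860.1 kb, and the rest of its stretch held 0, 0 and 3. Grin2b, an NMDA receptor subunit of the embryonic brain, held 3, 5 and 12 peaks, and its H3K4me3 density of 2.7 was below the 4.98 of its stretch. The AMPA receptor gene Gria1 held 2, 0 and 4 peaks. Of the others with an H3K79Hcy peak, Grid1, Gria2, Grik2, Grin2a and Grm3 held 1 each.

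GABA-A receptors are chloride channels that carry most fast inhibition in the brain. Among the 3 subunit genes, which lie near each other on chromosome 5, Gabrb1 held 13, 10 and 2 peaks over 438.5 kb. Its densities were 2.96 for H3K79Hcy and 2.28 for KHcy, against 0.484 and 0.484 in the rest of its stretch. In H3K79Hcy, 1.64% of 426 genes of similar length were as dense, and in KHcy 3.52%. Gabra4 held 0, 1 and 1 peaks, and Gabra2 none. The peaks of these neighbouring receptor genes were thus almost all in Gabrb1.

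The auxiliary subunits of Kv4 channels set the gating of A-type potassium currents. Kcnip4 held 6 H3K79Hcy, 6 KHcy and 0 H3K4me3 peaks, Dpp6 held 2, 2 and 3, and Dpp10 held 1, 3 and 0. Kcnip4 had 0.529 KHcy peaks per 100 kb, against 0.181 in the rest of its stretch, and 0.529 H3K79Hcy peaks per 100 kb, against 0.569. Among the very large receptors, Lrp1b, a lipoprotein receptor family member of 2058 kb, held 9, 6 and 0 peaks, or 0.437 H3K79Hcy and 0.291 KHcy peaks per 100 kb, against 0.408 and 0.408 around it. Erbb4, the neuregulin receptor, held 3, 1 and 2. Csmd1 held 1, 0 and 0 over 1643 kb, and Csmd3 1, 0 and 1.

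Genes rich in H3K79Hcy peaks were usually rich in KHcy peaks, but most of the peaks themselves did not overlap. The overlap that position alone would give was not measured. Spearman's rank correlation between the 2 densities over the 46 genes was 0.614, and 18 genes had a peak in both lists. An overlap with a KHcy peak was found for 14 of the 141 H3K79Hcy peaks (9.93%, 6.01 to 16), against 14.1% of the peaks in other genes. With H3K4me3, 6 overlapped (4.26%, 1.96 to 8.97), against 13%. Among the 112 KHcy peaks, overlap with H3K4me3 was found for 7 (6.25%, 3.06 to 12.3), against 14.7%. The shares in other genes lay outside the counting intervals for both overlaps with H3K4me3 and inside that for the overlap of the homocysteine lists. Counted from the H3K4me3 peaks, the shares were not lower. Of these, 5 of 99 overlapped an H3K79Hcy peak (5.05%, 2.18 to 11.3), against 4.23% in other genes. A KHcy peak was overlapped by 7 of 99 (7.07%, 3.47 to 13.9), against 6.23%. The 46 genes held fewer H3K4me3 peaks per 100 kb (0.301 against 0.852), and the other genes were not matched for length. Under the stricter score, the overlap of H3K79Hcy with H3K4me3 was 4 of 45 (8.89%, 3.51 to 20.7), against 22.2% in other genes. That of KHcy with H3K4me3 was also 4 of 45 (8.89%, 3.51 to 20.7), against 18.5%, which lay inside the interval. That of H3K79Hcy with KHcy was 6 of 45 (13.3%, 6.26 to 26.2), against 22.3%. An overlap with both other lists was found for 3 H3K79Hcy peaks, of which 2 were in Cntnap4 and 1 was the Chl1 peak.

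In the genes with 5 or more peaks of both homocysteine lists, most peaks of the lists lay kilobases apart. In Cntn4, 0 of 13 H3K79Hcy peaks overlapped a KHcy peak, and the median distance to the nearest KHcy peak was 19.8 kb. In Ctnna3 it was 0 of 11 with a median of 24.8 kb, and in Kcnip4 0 of 6 with 27.4 kb. In Grm7, 2 of 15 overlapped (median 9.6 kb), in Gabrb1 3 of 13 (8 kb), in Cntnap4 4 of 21 (13.6 kb) and in Lrp1b 1 of 9 (80.6 kb). In Chl1 it was 1 of 6 (6.2 kb) and in Magi2 1 of 5 (12 kb). The Cntnap4 peaks shared by all 3 lists formed a cluster in intron 2. There, H3K79Hcy peaks of 54 reads (chr8:115163001-115165600) and 37 reads (chr8:115166601-115168600) overlapped a KHcy peak of 40 reads (chr8:115164601-115166800) and an H3K4me3 peak of 48 reads (chr8:115165201-115168200).

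**Figure D5:**
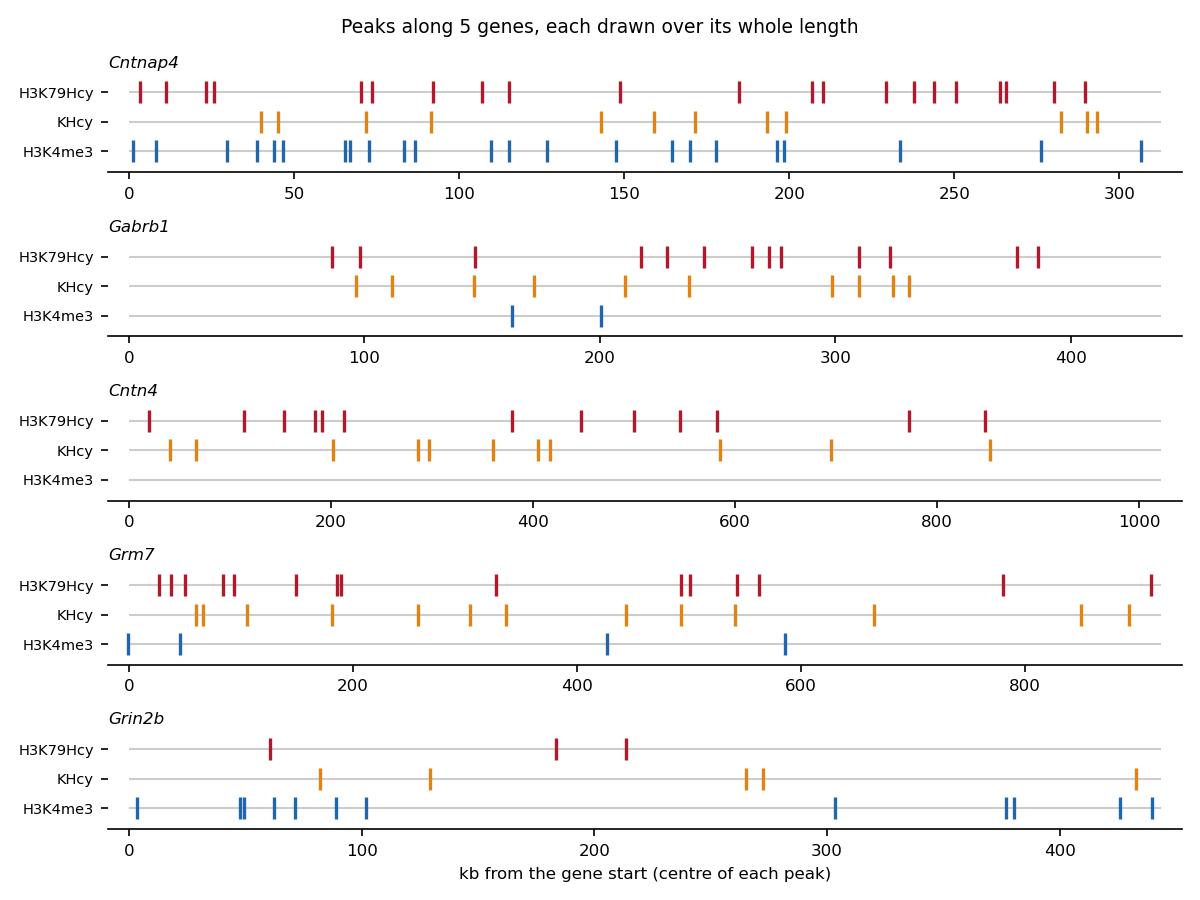
Each tick is the centre of a peak, placed by its distance in kb from the gene start, for Cntnap4, Gabrb1, Cntn4, Grm7 and Grin2b, with a line for each list. No H3K79Hcy peak of Cntn4 overlaps a KHcy peak (0 of 13), the H3K4me3 line of Cntn4 is empty, and Cntnap4 has peaks of the 3 lists along its whole length.

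Along the genes, H3K4me3 peaks leaned towards the start. With each gene divided into 5 parts of equal length, the part nearest the start held 36 of 99 H3K4me3 peaks (36.4%), against 29.7% in the other genes of 100 kb or more. H3K79Hcy peaks were more even, with 22.7%, 24.8%, 21.3%, 14.9% and 16.3% from the part nearest the start to the part nearest the end. In the other long genes, 19.1% were nearest the start and 20.2% nearest the end. For KHcy these end parts held 24.1% and 14.3%, against 19.6% and 22.5%.

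The gene start itself lay inside an H3K4me3 peak in 5 of the 46 genes (10.9%), against 5.41% of all protein-coding genes. These were Ncam1, Nfasc, Grm7, Csmd3 and Erbb4. In 4 more genes a peak lay within 1000 bp of the start, at 58 bp in Cntnap4, 147 bp in Gabra4, 316 bp in Magi1 and 990 bp in Grid1. The peaks over the start held 29 reads in Ncam1, 32 in Nfasc, 32 in Grm7, 34 in Csmd3 and 23 in Erbb4. No start of the 46 lay in an H3K79Hcy or a KHcy peak. The starts of 0.389% and 0.97% of all protein-coding genes did.

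The bases just before 3 of these starts, whose peaks passed the stricter score limit, are shown with those before the start of Cntnap2, whose nearest H3K4me3 peak was 383 kb away. Capitals mark CpG. The 200 bases are those at chr1:134638375-134638574 (minus strand) for Nfasc, chr6:110595375-110595574 for Grm7, chr15:48623610-48623809 (minus strand) for Csmd3 and chr6:45009860-45010059 for Cntnap2, all in mm9.
Nfasc: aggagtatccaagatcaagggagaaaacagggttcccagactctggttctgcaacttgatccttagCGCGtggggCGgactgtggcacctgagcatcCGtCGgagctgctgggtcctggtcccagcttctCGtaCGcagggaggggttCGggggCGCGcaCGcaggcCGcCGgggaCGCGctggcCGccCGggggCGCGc
Grm7: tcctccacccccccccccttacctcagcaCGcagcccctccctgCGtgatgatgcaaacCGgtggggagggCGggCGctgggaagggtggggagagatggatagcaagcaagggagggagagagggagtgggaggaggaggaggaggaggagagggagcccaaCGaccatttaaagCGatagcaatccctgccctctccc
Csmd3: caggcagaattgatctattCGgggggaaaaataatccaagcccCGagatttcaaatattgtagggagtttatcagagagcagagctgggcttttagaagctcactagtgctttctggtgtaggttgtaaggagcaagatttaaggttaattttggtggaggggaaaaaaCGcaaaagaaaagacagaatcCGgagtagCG
Cntnap2: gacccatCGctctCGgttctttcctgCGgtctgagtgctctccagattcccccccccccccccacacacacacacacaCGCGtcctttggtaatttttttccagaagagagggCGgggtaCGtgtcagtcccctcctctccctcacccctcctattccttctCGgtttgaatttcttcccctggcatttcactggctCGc
Nfasc had 19 CpG in these 200 bases, Grm7 7, Csmd3 5 and Cntnap2 9. The 5 genes with a peak over the start had a median of 11 CpG (5 to 19), and the other 41 also had a median of 11 (0 to 31). Over all protein-coding genes the median was 7, and over those with the start in an H3K4me3 peak 12. CpG content before the start thus did not separate the 5 genes from the others.

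Peaks of the homocysteine lists within the 46 genes had the base composition of the genes around them. Their median GC content was 38.8% for H3K79Hcy and 38% for KHcy, against 38.5% for windows of the same genes, while H3K4me3 peaks had 43.1%. A run of at least 6 CA or TG units was found in 22 of 141 H3K79Hcy peaks (15.6%, 10.5 to 22.5), against 14.6% of windows of the same genes. For KHcy it was 23 of 112 (20.5%, 14.1 to 28.9), against 26.8%, and for H3K4me3 25 of 99 (25.3%, 17.7 to 34.6), against 24.5%. Peaks in which more than 20% of the 31-base words were repeated in the genome made up 3.55%, 1.79% and 4.04% of the 3 lists, against 12.7% of 259 windows of 1400 bp.

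Another 70 synaptic and neuronal adhesion genes were listed for comparison. An H3K79Hcy peak was present in 17 of them (24.3%), a KHcy peak in 16 (22.9%) and an H3K4me3 peak in 25 (35.7%). Their median length was 198 kb, below that of the 46 genes. Their pooled densities were 0.138 H3K79Hcy and 0.0904 KHcy peaks per 100 kb, below the 0.429 and 0.341 of the 46 genes and the 0.271 and 0.3 of the other genes of 100 kb or more. These differences were not tested. The pooled H3K4me3 density was 1.63. They held 35 H3K79Hcy and 23 KHcy peaks but 416 H3K4me3 peaks, of which 224 were in Cdh13 and 99 in Sdk1, which were named after their values were seen.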

How the data were processed

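ChIP-seq peak lists were analysed for 1 library of NE4C cells with each of 3 antibodies. Chromatin was sonicated per the labels, whereas the methods of the study name an enzymatic kit. Libraries had 15 cycles of PCR. The authors used Bowtie 2 for alignment to mm9 and MACS for peaks (version 1.4.2 in the submitters' processing notes), with filtering through a control input. A figure legend of the study names SICER instead, and which caller made the lists is not settled here. The lists have no header. The authors deposited for each peak its position, its length in windows of 200 bp, the count of reads in it, which is not normalized, and a score. In peaks of 1 window, the deposited score could be read as minus the natural log of a Poisson probability, and from it the background of each library was solved (1.592, 1.486 and 1.381 reads per window for H3K79Hcy, KHcy and H3K4me3, from 27, 8 and 14 peaks). Fold is the reads of a peak over this background for its length.

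Positions are in mm9, counted from 1. Genes were protein-coding records of GENCODE M1, and where records shared a symbol the longest was used. A peak belonged to a gene it overlapped by at least 1 bp. Genes of similar length were the other genes from 2/3 to 1.5 times the length (the 20 nearest where fewer). The stretch was 5 Mb centred on the gene, and its rest excluded the gene and assembly gaps. The 46 genes and the lists used for comparison were chosen with earlier results of these data known. Genes named were those with the most and fewest peaks of each role, the 5 longest, the 3 densest in each list and those without a peak, and the named peaks were the 3 of largest fold in each list and those shared by all lists. Other genes are given for completeness of each group. Without replicates no p-value was computed. Shares have Wilson intervals and medians have order-statistic intervals, both at 95%. The alternatives were a stricter score (100 times less probable than the lowest of the list), peaks within 3000 bp merged, assignment by the centre of the peak, lists of equal length, similar length within 1.25 times or on the same chromosome, fixed stretches, only gene bodies in the stretch, an overlap of 50% of the peak, a start within 1000 bp and any transcript start. The scripts were tested on simulated data. Python 3.11.15, NumPy 2.4.6 and SciPy 1.17.1 were used.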

Additional observations from a re-analysis of the deposited data

How the results depend on the processing

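Under the alternatives, 68 values stayed within 1.5 times the count or within the interval of the value given in the report, and 7 did not. With the stricter score, H3K79Hcy peaks were present in 16 genes instead of 28, H3K4me3 peaks in 14 instead of 22, 5 genes instead of 11 were denser in H3K4me3 than the rest of their stretch, and 3 starts instead of 5 lay in an H3K4me3 peak. The ratios of counted peaks to those of genes of similar length were then 2.63 for H3K79Hcy, 2.31 for KHcy and 0.344 for H3K4me3, and those to the rest of the stretches 0.907, 0.772 and 0.359. In lists of equal length, 13 genes had an H3K4me3 peak. With peaks within 1000 bp of the start counted, 9 starts had one. Without the 11 genes of chromosome 6, an alternative added after the data were seen, 11 genes instead of 18 were denser in KHcy than genes of similar length. These alternatives used fewer peaks, a wider start or fewer genes by construction. Another alternative added after the data were seen left the other members out of the rest of each stretch, which gave 11, 7 and 10 denser genes instead of 12, 7 and 11. No paired analysis was possible because each antibody had 1 library and no test was made. Depth limits what an empty gene shows: the smallest peaks in these genes held 15, 20 and 20 reads in the H3K79Hcy, KHcy and H3K4me3 lists, and weaker signal is not in the lists.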
